A study of Mus musculus with 3 samples.

Results

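The genes described here are the axon guidance ligands and receptors of the kidney mesangium. They comprise the semaphorins of classes 3 to 7 with their plexin and neuropilin receptors, and the ephrins with the Eph receptors. Also included are the Slits with the Robo receptors, the netrins with Dcc and the Unc5 receptors, and netrin-G, counted as a ligand. All were taken by gene symbol, a rule that uses no measured value, although the families were picked with earlier results of these data known. Of 72 symbols of these families in the RefSeq gene table, 69 had a probe set that names exactly 1 gene, out of 19938 such genes on the array. Ephb2, Ntng2 and the antisense gene Plxna4os1 were not analysed here. For the 6 members with 2 probe sets, the one with the higher mean is given. The members comprise 36 ligands and 33 receptors.

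Mesangial cells are the contractile support cells between the capillaries of the kidney glomerulus and resemble pericytes. The 3 samples were mesangial cells from adult male CD-1 mice carrying the transgene Tg(Meis1-EGFP)FO156Gsat, in which Meis1 regulatory sequence on a bacterial artificial chromosome drives a green fluorescent protein. Glomeruli were sieved from collagenase-treated cortex, dissociated with trypsin and sorted by fluorescence, and each sample came from 1 kidney without pooling. All samples carry the transgene, and no control population was analysed here. Whether the 3 kidneys belonged to different mice is not stated, so the spread between samples may in part be technical. The transgene marks cells by Meis1 activity, which is not limited to the mesangium, and the labels name both glomerular and extraglomerular mesangium as the source.

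Guidance cues were first described as signals that attract or repel growing axons, and the same molecules act on migrating and contacting cells in many tissues. Secreted or membrane-bound semaphorins bind plexins, whose cytoplasmic part acts on small GTPases, and most class 3 semaphorins need a neuropilin as co-receptor. Ephrins and Eph receptor kinases are both held in the membrane and signal in both directions on cell contact, while Slits bind Robo receptors and netrins bind Dcc and Unc5 receptors. In vessels, including those of the kidney, several of these systems are known to shape contacts between endothelial and mural cells.

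Values are the deposited log2 signals, given for samples 1, 2 and 3 in that order or as mean ± SD (n = 3). Background was set by probe sets of gene families thought to be silent in kidney, namely keratin-associated proteins and the olfactory, vomeronasal and trace amine receptors. A gene counted as above the threshold if it exceeded their 95th percentile on every array, which was 7.48, 7.46 and 7.40, and 4.71% of the silent genes did so. A gene that passed by at most 1 lies close to background, so the text also uses a raised threshold 1 higher (8.48, 8.46 and 8.40), passed by 0.958% of them. Probe sets differ in affinity, so a signal is set against the threshold and not against the signal of another gene. The marker lists gave 12 of 13 mesangial genes more than 1 above the threshold, among them Itga8 at 12.96 ± 0.01 and Pdgfrb at 12.03 ± 0.06. None of 10 neuronal markers passed the plain threshold, with Syt1 at 7.26. Of 14 tubule markers 7 passed the plain threshold, and none passed the raised one on all 3 arrays, with Slc34a1 at 8.15 ± 0.16. Umod, at 9.51, 9.18 and 8.22 (8.97 ± 0.67), passed it in samples 1 and 2. Calb1, at 7.72, 8.66 and 8.49, passed it in samples 2 and 3. Of the endothelial markers 17 of 18 passed the plain threshold and 10 the raised one, and they divided: Pecam1 at 7.61 ± 0.05 and Cdh5 at 7.66 ± 0.05 stayed within 1 of the plain threshold, while Cd34 at 11.99 ± 0.00, Eng at 11.17 ± 0.17, Tek at 10.78 ± 0.12, Ehd3 at 10.42 ± 0.24 and Emcn at 10.38 ± 0.19 were above the raised one on every array. These 5 were picked with their values in view.

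Of the 69 guidance genes, 39 (56.5%) lay above the threshold, beside 58.0% of all 18685 named genes. At the raised threshold 19 remained (27.5%), beside 32.7% of named genes. As a whole the families were therefore close to the background share. The roles divided at the raised threshold: 14 of 33 receptors (42.4%) and 5 of 36 ligands (13.9%) lay more than 1 above, whereas at the plain threshold the shares were 57.6% and 55.6%. With the 90th percentile as threshold, 42.4% of receptors and 25.0% of ligands lay more than 1 above, beside 41.6% of named genes. With the 99th percentile the shares were 27.3% and 5.56%, beside 17.2%. More than 2 above the 95th percentile, a height chosen after the data were seen, lay 21.2% of receptors and 5.56% of ligands, beside 15.8% of named genes. More than 3 above, chosen likewise, lay 6.06% of receptors and 5.56% of ligands, beside 6.04%. The gap between the roles thus varied with the threshold and the height, and at more than 3 above, as at the plain threshold, both roles were near the background share. No test was made of these shares, since genes are not replicates of the cells.

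**Figure D1:**
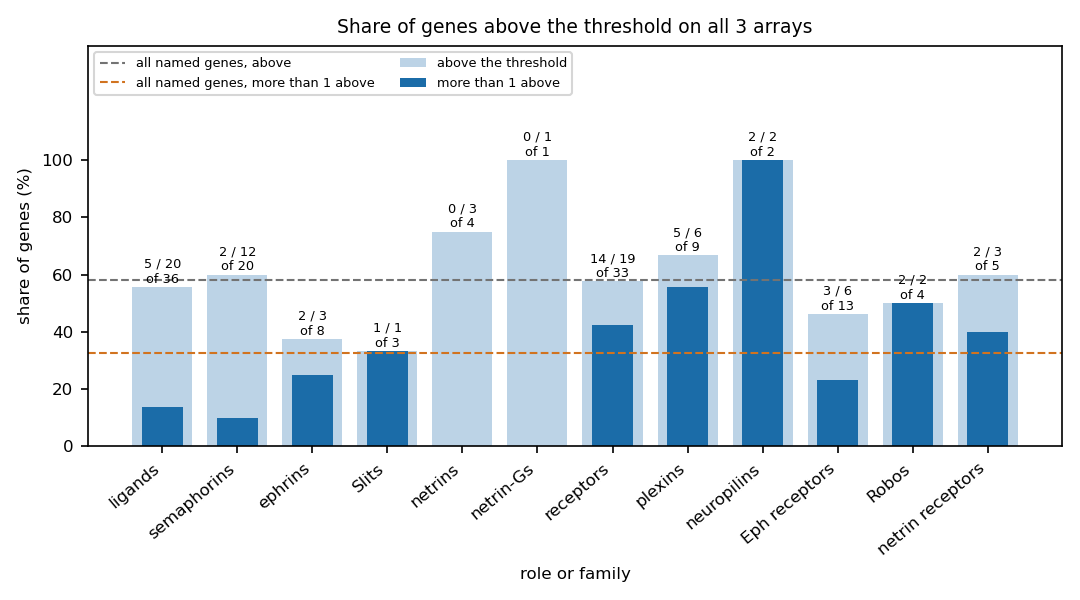
Percentage of genes (vertical axis) that passed the silent-gene threshold on each of the 3 arrays (light bars) and more than 1 above it (dark bars) for ligands, receptors and each family; numbers over the bars give the genes more than 1 above, those above, and all measured. The dashed lines mark all named genes, at 58.0% and 32.7%; the receptors reach 42.4% more than 1 above and the ligands 13.9%.

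The co-receptors of the semaphorin system were well above background while the secreted class 3 ligands were not. Nrp1, which encodes a co-receptor for class 3 semaphorins and for vascular endothelial growth factor, had 12.50, 12.57 and 12.57. It lay more than 5 above the threshold in every sample, and no other member did so. Nrp2, the second neuropilin gene, had 9.68 on all 3 arrays and was also more than 1 above. Of the 7 class 3 semaphorin genes, most of whose products need a neuropilin, 2 passed the threshold and none passed the raised one. Sema3f had 8.29, identical on the 3 arrays, and Sema3g had 7.77 ± 0.00. Sema3b at 7.26, Sema3a at 6.67, Sema3e at 6.09, Sema3c at 6.06 and Sema3d at 5.67 were not above the threshold in any sample. Both neuropilin genes thus passed the raised threshold in samples where no class 3 ligand gene did. With the 90th percentile as threshold, however, Sema3f was also more than 1 above.

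The promoter windows of Nrp1 and Sema3d are shown because they stand at opposite ends of this system, the co-receptor more than 1 above the threshold and the ligand below it. Each is the 250 bases before the RefSeq gene start on build GRCm38.p6, 5′ to 3′ on the gene's strand, with CpG sites (a C followed by a G) in capitals. The Nrp1 window, chr8:128358823-128359072 on the + strand, holds 11 CpG sites, and the Sema3d window, chr5:12382916-12383165 on the + strand, holds 4.
Nrp1: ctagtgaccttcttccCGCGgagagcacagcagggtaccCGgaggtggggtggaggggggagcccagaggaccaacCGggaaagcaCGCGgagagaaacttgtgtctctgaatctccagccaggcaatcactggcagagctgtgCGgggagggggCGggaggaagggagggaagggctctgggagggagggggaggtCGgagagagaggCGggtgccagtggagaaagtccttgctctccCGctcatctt
Sema3d: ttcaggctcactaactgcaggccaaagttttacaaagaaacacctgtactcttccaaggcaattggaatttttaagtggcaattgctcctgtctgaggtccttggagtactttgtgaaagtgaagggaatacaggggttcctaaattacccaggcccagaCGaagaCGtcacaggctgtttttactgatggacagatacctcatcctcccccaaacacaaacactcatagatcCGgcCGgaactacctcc

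Among the membrane-bound semaphorins, Sema5a and Sema6d were the members more than 1 above the threshold. Sema5a, which encodes a transmembrane semaphorin with thrombospondin repeats, had 10.60, 10.50 and 10.76 (10.62 ± 0.13). All 3 samples lay more than 3 above the threshold, with sample 2 lowest and sample 3 highest. Its relative Sema5b had 7.50 ± 0.03 and passed by under 0.1. Sema6d, for a transmembrane ligand of plexin A1, had 9.31 on all arrays. The other class 6 genes were Sema6b at 7.55 ± 0.00 and Sema6a at 7.53, which passed the plain threshold narrowly, and Sema6c at 6.81, which did not pass. Class 4 semaphorins, transmembrane ligands of B plexins, gave 5 of 6 genes above the threshold and none above the raised one. Sema4b had 8.34 ± 0.03, Sema4d, the ligand of plexin B1, 7.90, Sema4c 7.85 ± 0.08 and Sema4a 7.69 ± 0.06. Sema4g at 7.49 cleared the threshold of sample 1 by 0.01, and Sema4f at 6.35 lay below it. The 1 class 7 gene, Sema7a, for a lipid-anchored semaphorin, had 7.23 and was not above the threshold. In all, 10 of the 20 semaphorin genes sat within 1 above the threshold, 8 below it and 2 more than 1 above.

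Plexins, the signalling receptors for semaphorins, passed the raised threshold in 5 of 9 genes (55.6%), beside 32.7% of named genes. Plxna1, a partner of neuropilins and receptor for class 6 semaphorins, had 10.02 on each array, and Plxnd1, the receptor for Sema3e with a known part in vessel patterning, had 9.96 on each. Plxnb1 gave 9.43 and Plxna2 9.11, again without any difference between arrays. Plxnb2, a receptor of class 4 semaphorins, had 9.49, 9.20 and 9.42 (9.37 ± 0.15), with sample 2 below the other two. Plxna3 at 7.74 passed the plain threshold only. Plxna4 at 7.41, Plxnb3 at 7.09 and Plxnc1, the receptor of Sema7a, at 6.44 ± 0.15 did not pass on all arrays. Plxna4 was above the threshold of sample 3 by under 0.01 and below the others. At least 1 gene of the A, B and D plexins was therefore more than 1 above the threshold, and the C plexin gene was not above it.

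**Figure D2:**
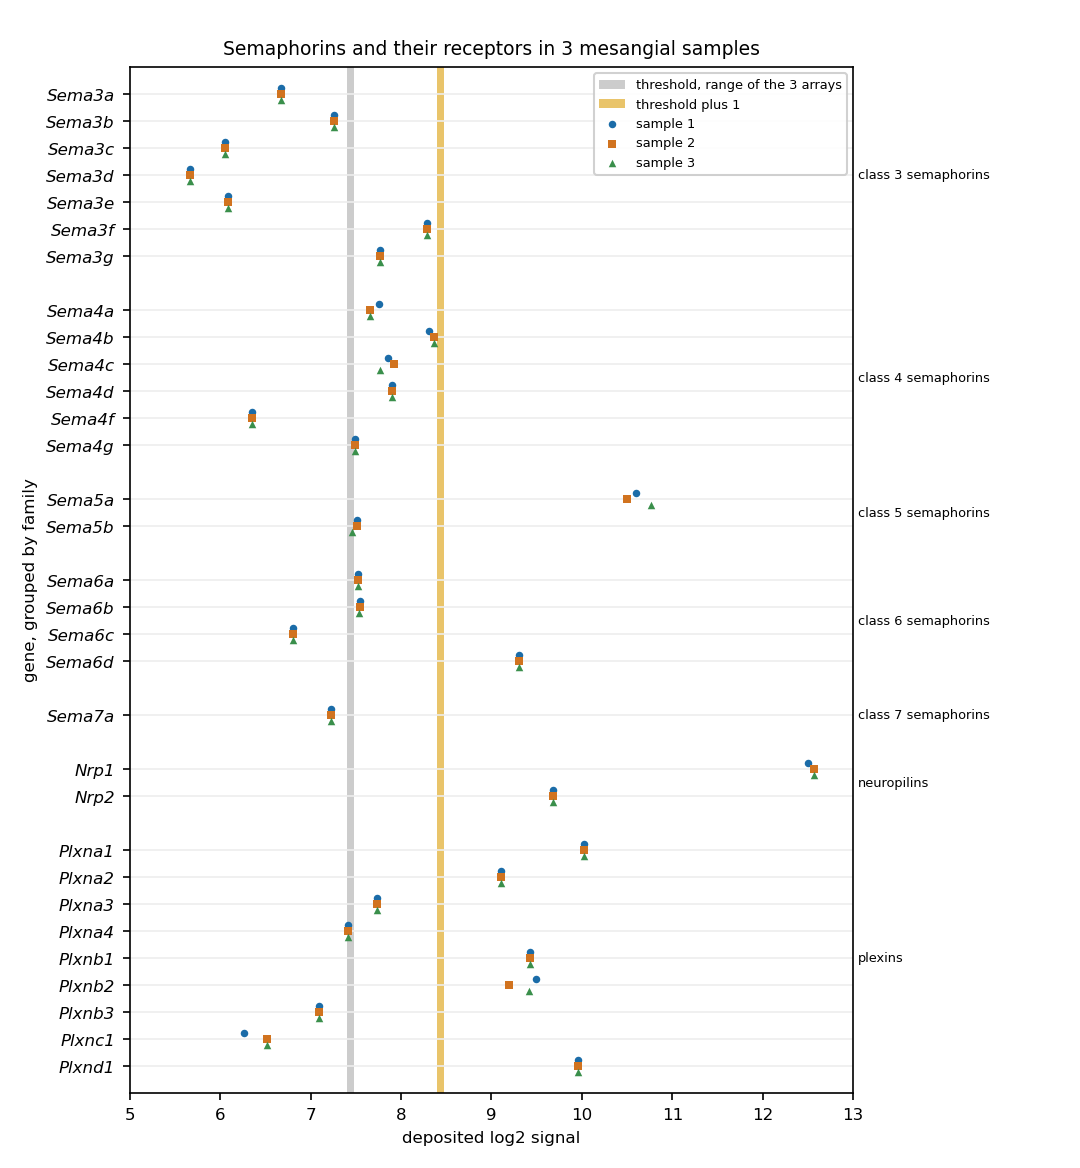
Deposited log2 signal (horizontal axis) of the 20 semaphorin, 2 neuropilin and 9 plexin genes in sample 1 (circles), sample 2 (squares) and sample 3 (triangles). The grey band spans the silent-gene thresholds of the 3 arrays (7.40 to 7.48) and the yellow band the same plus 1; Nrp1 lies at 12.50 to 12.57 and every class 3 semaphorin to the left of the yellow band.

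In the ephrin system 2 of the 3 ephrin-B genes, 2 of the 9 EphA and 1 of the 4 EphB receptor genes lay more than 1 above the threshold. Efnb2, which encodes a transmembrane ephrin known from arteries and from mural cells, had 11.40, 11.40 and 11.39. All samples lay more than 3 above the threshold. Efnb1 had 8.88, 9.02 and 9.13 (9.01 ± 0.13) and was more than 1 above in each sample. Efnb3 at 7.24 was not above the threshold. Ephrin-A genes, whose products are held by a lipid anchor, gave 1 of 5 above the threshold and none above the raised one: Efna4 had 7.62, Efna5 6.96, 7.09 and 6.96 in the 3 samples, Efna2 6.98, Efna1 6.95 and Efna3 6.62.

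The promoter windows of Efnb2 and Epha8 are shown because both are rich in CpG sites although the ligand gene was more than 1 above the threshold and the receptor gene, at 7.40 on all arrays, was not above it. The windows were taken and marked as for Nrp1. The Efnb2 window, chr8:8661243-8661492 on the - strand, holds 27 CpG sites, and the Epha8 window, chr4:136956817-136957066 on the - strand, holds 46.
Efnb2: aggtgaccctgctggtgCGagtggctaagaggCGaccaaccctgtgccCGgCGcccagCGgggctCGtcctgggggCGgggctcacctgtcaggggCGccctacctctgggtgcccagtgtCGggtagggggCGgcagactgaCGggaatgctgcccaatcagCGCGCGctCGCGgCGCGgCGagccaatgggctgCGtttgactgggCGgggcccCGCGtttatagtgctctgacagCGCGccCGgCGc
Epha8: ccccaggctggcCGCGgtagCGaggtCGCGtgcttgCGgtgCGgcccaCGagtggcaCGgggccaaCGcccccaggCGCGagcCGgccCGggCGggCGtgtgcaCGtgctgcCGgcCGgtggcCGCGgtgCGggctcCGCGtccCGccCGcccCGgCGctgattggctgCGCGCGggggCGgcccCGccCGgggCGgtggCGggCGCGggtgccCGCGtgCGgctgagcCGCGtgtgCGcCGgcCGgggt

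Eph receptor genes, which encode receptor tyrosine kinases, were above the threshold in 6 of 13 cases (46.2%) and more than 1 above in 3 (23.1%). The shares of named genes were 58.0% and 32.7%. Epha7 had 10.17, 9.98 and 9.99 (10.05 ± 0.11). Its 3 samples lay more than 2 above the threshold, sample 1 being the highest. Epha3 had 8.89, 8.58 and 9.08 (8.85 ± 0.25), and all samples passed the raised threshold, though sample 2 did so by little. No ephrin-A gene, whose products are the main ligands of the A receptors, passed the raised threshold beside these receptors. Ephb4, the receptor of ephrin-B2, had 8.57, 8.52 and 8.45 (8.51 ± 0.06) and passed the raised threshold narrowly in each sample. Ephb1 at 7.86 ± 0.03, Ephb6 at 7.79 ± 0.06 and Epha10 at 7.84 ± 0.01 passed the plain threshold only. The products of Ephb6 and Epha10 are known to lack kinase activity. Epha1 at 7.47 ± 0.01 missed the threshold on array 1 alone, and counted as above it without sample 1, with olfactory receptors alone as reference, with the 90th percentile, or when the mean of the arrays was used. Epha2 at 7.10, Epha4 at 7.01, Ephb3 at 6.99, Epha5 at 6.02 and Epha6 at 5.45 lay below the threshold on every array.

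The Slit and Robo genes divided within each family. Slit3, for a large secreted ligand, had 8.91, 8.79 and 8.91 (8.87 ± 0.07) and was more than 1 above the threshold in all samples, whereas Slit1 at 7.01 and Slit2 at 6.82 were not above it. Robo1 had 10.66 on each array. Robo2, known for restricting the site of ureteric bud outgrowth in the kidney, had 9.78, 9.82 and 9.94 (9.85 ± 0.08). Both receptor genes lay more than 2 above the threshold in every sample. Robo4, the Robo gene known from endothelium, had 7.17 and Robo3 6.50, and neither was above the threshold.

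Of the 5 netrin receptor genes among the members, Unc5b and Unc5c passed the raised threshold, and no netrin gene did so on all arrays. The netrin receptor gene Neo1, which was not a member, also passed it, at 9.72. Unc5c had 9.45, 9.39 and 9.45 (9.43 ± 0.04), and Unc5b, a netrin receptor known from endothelium, had 8.97, 8.97 and 9.11 (9.02 ± 0.08). The samples of each gene lay within 0.2 of each other. Unc5d at 7.51 passed the plain threshold only, and Unc5a at 7.06 and Dcc, the receptor for attraction to netrin-1, at 6.97 ± 0.04 were not above it. Ntn4, which encodes a netrin of basement membranes, had 8.52, 8.43 and 8.43 (8.46 ± 0.05). It passed the raised threshold in samples 1 and 3 and missed it in sample 2, so that it counted as more than 1 above without sample 2, with olfactory receptors alone as reference, with the mean of the arrays and with the 90th percentile. Ntn1 at 7.62, Ntn3 at 7.60 and the lipid-anchored netrin-G gene Ntng1 at 8.28 passed the plain threshold, and Ntn5 at 6.75 did not. Ntng1, Unc5d and Sema4d each had another probe set, at 6.35, 6.69 and 7.36, that was not above the threshold, so these 3 calls depended on the choice of probe set.

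**Figure D3:**
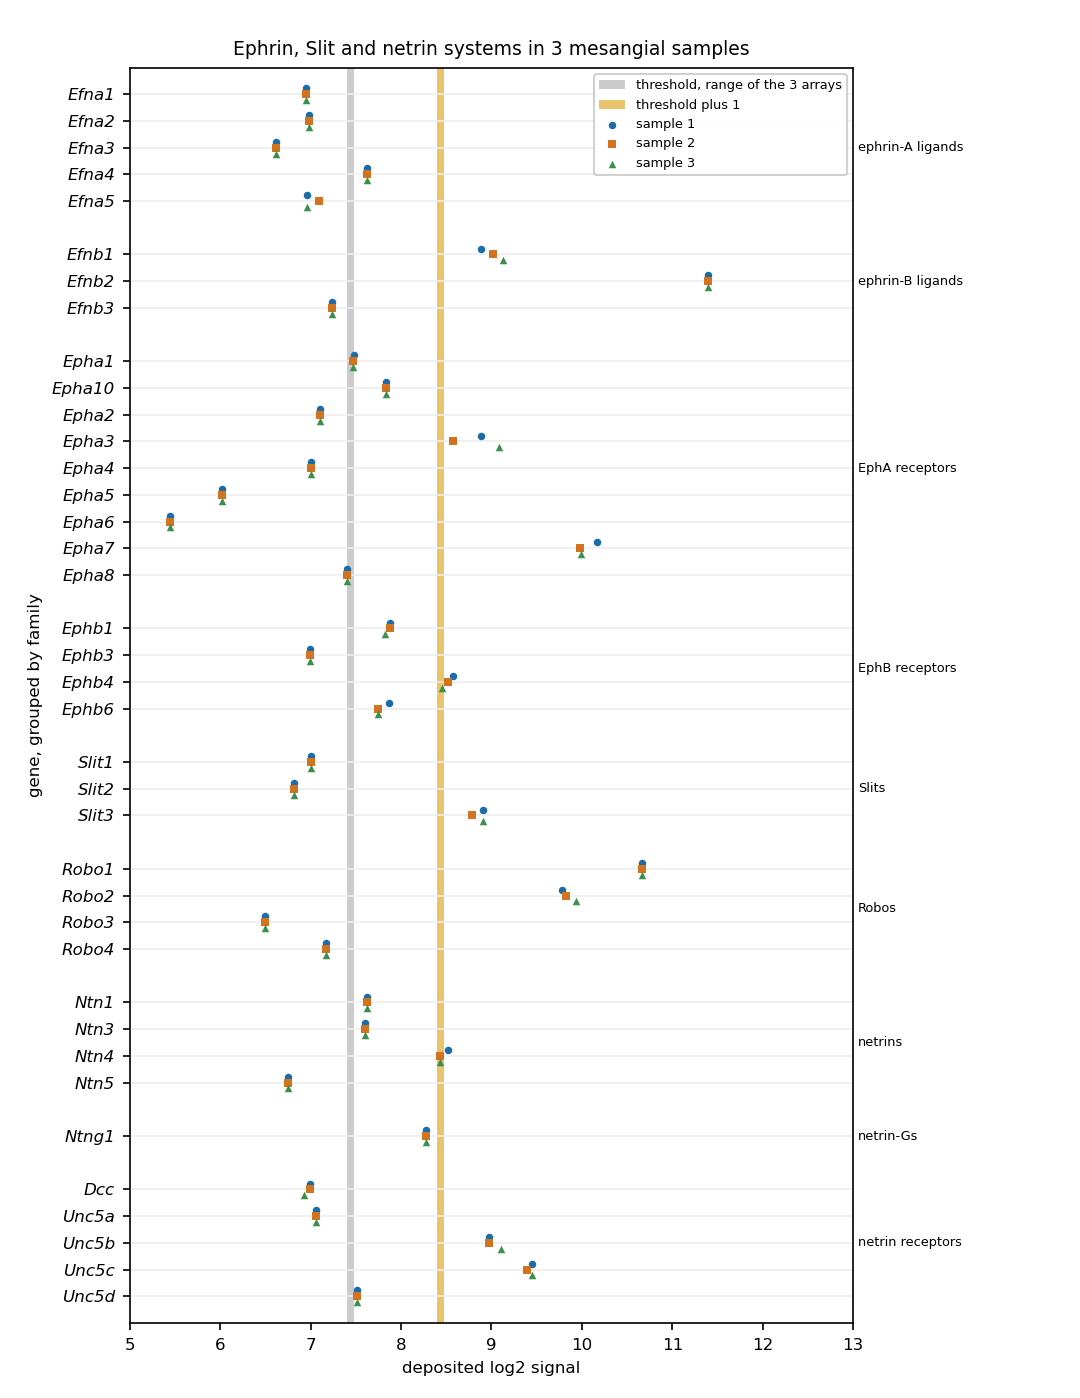
Deposited log2 signal (horizontal axis) of the ephrin, Eph, Slit, Robo, netrin and netrin receptor genes in samples 1 (circles), 2 (squares) and 3 (triangles), with the silent-gene thresholds in grey (7.40 to 7.48) and the same plus 1 in yellow. Efnb2 at 11.39 to 11.40, Robo1 at 10.66 and Epha7 at 9.98 to 10.17 lie far to the right, and all 5 ephrin-A genes lie left of the yellow band.

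Ligands and receptors were also read as pairs. Of 40 textbook ligand and receptor pairs among the members, both genes were more than 1 above the threshold in 5: Sema5a with Plxna1, Sema6d with Plxna1, Efnb2 with Ephb4, Slit3 with Robo1 and Slit3 with Robo2. In 20 pairs the receptor gene alone was more than 1 above, in 6 the ligand gene alone, and in 9 neither. The pairs with the receptor alone include the neuropilins with class 3 semaphorins, Plxnd1 with Sema3e, Epha3 and Epha7 with Efna5, and Unc5b and Unc5c with Ntn1. Pairs share genes, so these counts are not independent of each other. Of the 25 receptor genes in the pairs 14 were more than 1 above, and of the 25 ligand genes 5. These are all the members more than 1 above, so the split follows from the roles and the pairs chosen. It is no result about pairing. With the 99th percentile as threshold, Sema6d, Ephb4 and Slit3 were no longer more than 1 above. Of the 5 pairs named first, only Sema5a with Plxna1 then remained.

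Several of these genes are known from other glomerular cells, and their values stand beside the markers of those cells. Over the 3 arrays the summed unlogged signal of the 18 endothelial markers ranged from 14250 to 15347 and that of the 11 measured podocyte markers from 5646 to 5787. These sums compare the arrays within a list; they rest mostly on the brightest probe sets and give no amount of a cell type. Among podocyte genes 8 of 11 (72.7%) passed the threshold and 4 (36.4%) the raised one, beside 58.0% and 32.7% of named genes. These 4 were Cd2ap at 11.21, Wt1 at 10.15 ± 0.08, Cdkn1c at 8.85 ± 0.02 and Kirrel at 8.62, named after their values were seen. The slit diaphragm gene Nphs1 had 7.39 ± 0.06 and was not above the threshold. Of the other marker lists, 8 of 10 smooth muscle and 4 of 7 fibroblast genes passed the raised threshold, beside 32.7% of named genes. So did 1 of 6 parietal epithelial and 1 of 9 macrophage genes. The renin cell list held 5 genes, of which Ren1 and Akr1b7 were not measured, and the 3 measured genes passed. The part of endothelial cells in the values of Nrp1, Efnb2, Ephb4, Plxnd1 and Unc5b, and of podocytes in those of Efnb1 and Robo2, was not tested. In sorted populations measured in bulk, fewer cells of a type and less RNA per cell cannot be told apart.

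Most signalling partners of these receptors lay above the threshold. On a list of 60 such genes, 57 were measured, of which 45 (78.9%) lay above the threshold and 28 (49.1%) more than 1 above, beside 58.0% and 32.7% of named genes. The list holds broadly used genes of the cytoskeleton, such as the small GTPase genes Rhoa at 12.70 ± 0.04, Cdc42 at 12.27 ± 0.10 and Rac1 at 11.69 ± 0.03. It also includes Sdcbp, whose product syntenin binds the tails of B ephrins, at 11.27, the actin-severing factor gene Cfl1 at 11.06 ± 0.10 and Rasa1, for a GTPase activator that binds Eph receptors, at 11.06 ± 0.08. Of 28 other guidance cues and receptors that were not members, 14 lay above the threshold and 8 (28.6%) more than 1 above. Some of these also bind netrins or Slits. Among the latter were the netrin and repulsive guidance molecule receptor gene Neo1 at 9.72, the Wnt receptor gene Ryk at 9.99 ± 0.09 and the myelin inhibitor gene Rtn4 at 9.90 ± 0.06. Dag1, for the Slit-binding protein dystroglycan, had 9.78 ± 0.10, the hedgehog receptor gene Ptch1 9.51 ± 0.16 and the syndecan gene Sdc3 9.46 ± 0.02.

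The members differed little between samples, and many carried the same deposited value on every array. Of the 69 genes 43 (62.3%) carried 1 identical value on all 3 arrays, as did 51.1% of named genes. Identical values were found for 26 of the 30 members that were not above the threshold and for 7 of the 19 more than 1 above. Among all named genes more than 1 above, 29.6% carried identical values. An SD of 0 therefore does not show that a gene was measured without error. Epha3 was the member with a range over 0.5 (0.51), beside 3.43% of named genes, and without sample 2 or without sample 3 no member had such a range. Plxnb2 with a range of 0.29, Sema5a with 0.26, and Efnb1 and Plxnc1 with 0.25 followed. Among the 26 members with differing values, sample 1 was alone the highest for 7 (26.9%), sample 2 for 3 (11.5%) and sample 3 for 6 (23.1%). The shares over all named genes with differing values were 28.2%, 19.5% and 24.6%. No array was alone the highest for most of these members. With 3 arrays the precision of each value is limited.

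**Figure D4:**
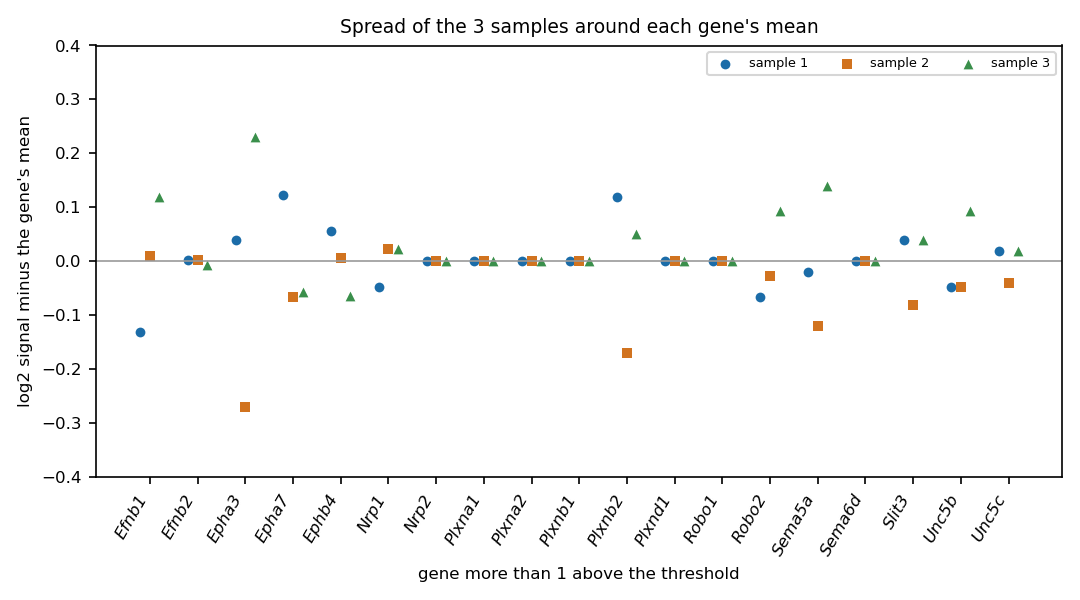
Log2 signal of each sample minus the mean of the 3 samples (vertical axis) for the 19 genes more than 1 above the threshold, with circles, squares and triangles for samples 1, 2 and 3. Points on the zero line for Nrp2, Plxna1, Plxna2, Plxnb1, Plxnd1, Robo1 and Sema6d are the identical values, and Epha3 has the widest spread of these genes, at 0.51 from lowest to highest.

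Promoter sequence was compared across the members as a feature that the choice of genes did not use. RefSeq promoter windows matched 59 members, and for the 12 with several listed starts the most upstream was used. The median number of CpG sites in the 250 bases before the start was 17.5 for the 18 matched genes more than 1 above the threshold, 16.0 for the 16 that passed by at most 1 and 15.0 for the 25 not above it. For all named genes the medians were 17.0, 14.0 and 6.0. Members that were not above the threshold thus had more CpG sites at the median than named genes that were not above it, while those more than 1 above were near the named genes. The counts varied widely within each class, from 8 to 35 among members more than 1 above and from 2 to 46 among those not above, as the windows of Nrp1, Efnb2, Epha8 and Sema3d show. A CpG count is a description of the window and was not tested.

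**Figure D5:**
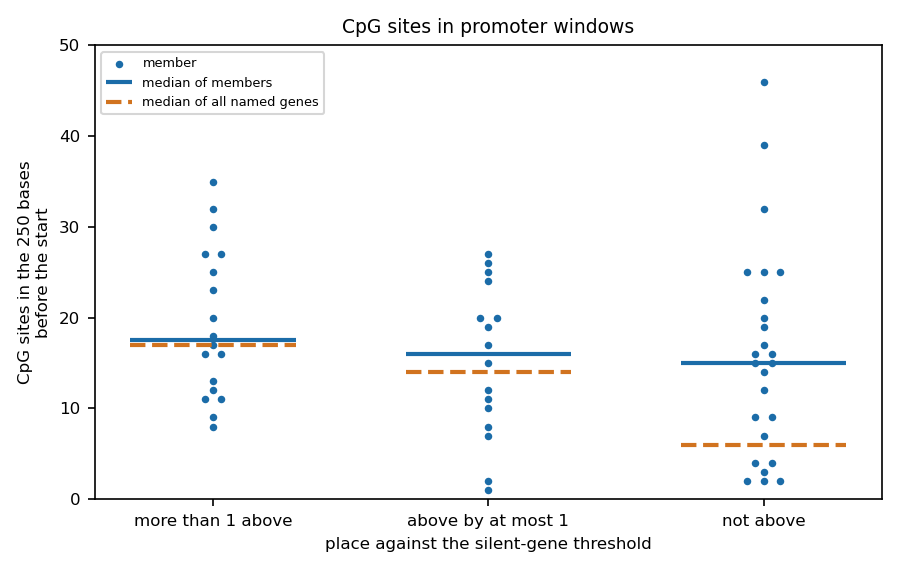
CpG sites in the 250 bases before the gene start (vertical axis) for each matched member, by its place against the silent-gene threshold. Solid lines are medians of the members (17.5, 16.0 and 15.0) and dashed lines medians of all named genes (17.0, 14.0 and 6.0); the lines lie farthest apart for genes not above the threshold.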

How the data were processed

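Per the labels, RNA of the 3 mesangial samples was amplified in 1 round and each sample was hybridised to its own array. According to the submitters' processing notes, the authors made the deposited log2 probe set signals in Affymetrix Expression Console. The software version and the steps of background correction and summary are not given here by any label. The log2 base was inferred from the highest deposited value of 14.39, and centring beyond the array medians (7.53, 7.56 and 7.54) is unknown.

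Of 35557 probe sets 21789 carried exactly 1 symbol, 1621 several, and the rest were not listed; 21698 symbols matched the RefSeq gene table of GRCm38.p6 by Entrez number. The probe set with the highest mean stood for a gene. Thresholds came from 1269 probe sets of silent families. Calls were counted with Python 3.11.15 and pandas 2.3.3, without any test between groups. Every member is named; the 6 genes of each signalling list with the highest means are named too. The members and lists were chosen with earlier results of these data known. Alternatives were the 90th and 99th percentile, olfactory receptors alone, array means, the lowest probe set, centring, annotation symbols and leaving out each sample.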

Additional observations from a re-analysis of the deposited data

How the results depend on the processing

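The counts moved most with the threshold. With the 99th percentile of the silent genes, 20 members were above the threshold in place of 39, beside 35.3% of named genes; 11 were more than 1 above in place of 19, and 6 ligands were above in place of 20. Chosen after the data were seen, heights of more than 2 and more than 3 above the 95th percentile left 9 and 4 members, beside 15.8% and 6.04% of named genes; the 4 were Nrp1, Efnb2, Robo1 and Sema5a. With the 90th percentile 48 members (69.6%) were above, beside 68.8% of named genes. Sema3f, Sema4b, Ntn4 and Ntng1 were then also more than 1 above. Leaving out each sample gave 39 to 40 members above, 19 to 20 more than 1 above, 20 ligands, 19 to 20 receptors, and 0 to 1 members with a range over 0.5. Centring each array left every call of the members as it was, by construction, and so did the annotation's own symbols. No paired analysis was possible because there was 1 group.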

Other observations

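Some members are direct neighbours among the protein-coding genes of the RefSeq table. Robo1 and Robo2 are next to each other and both were more than 1 above the threshold, while the neighbours Robo3 and Robo4 were both not above it. Sema3a and Sema3d, also neighbours, were not above it either. In the row of Efna1, Efna3 and Efna4, only Efna4 passed the plain threshold, at 7.62.

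The letters TGACAG, the core bound by Meis proteins, stood on either strand of the 250-base window in 6 of 59 matched members (10.2%), beside 14.8% of 14549 named genes. They were found for Efnb2, Plxna2, Ntn4, Sema3g, Sema4d and Sema7a, of which Efnb2 and Plxna2 were more than 1 above the threshold. The GATA core AGATAA stood in 2 windows (3.39%), those of Epha3 and Efna4, beside 7.61% of named genes. These matches describe the windows and say nothing of binding. Meis1 itself, whose regulatory sequence drove the sort, had 9.39 ± 0.05.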
